A study of Rattus norvegicus with 22 samples.

Results

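The NMDA receptor genes described here were Grin1, Grin2a, Grin2b, Grin2c, Grin2d and Grin3a, which encode the receptor subunits GluN1, GluN2A to GluN2D and GluN3A. They were chosen by name as a gene family, with earlier results of these data known, and are 6 of the 17172 genes of the count table. All 6 passed the filter on low counts, which left 12875 genes for testing. RNA was sequenced from the whole ipsilateral (right) hippocampus of adult male Sprague-Dawley rats, and reads from polyadenylated RNA were counted per gene in 14 samples. The TBI groups received a moderate lateral fluid percussion injury, a pressure pulse of fluid onto the exposed dura, and were sampled at 1 day (4 samples) or 14 days (4 samples). The Sham groups underwent anesthesia and surgery of the same kind with no pulse and were sampled at 1 day (2 samples) or 14 days (4 samples). All groups therefore shared the craniotomy. No other agent or genotype was given in the labels.

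NMDA receptors are glutamate-gated channels that typically pass calcium when glutamate and a co-agonist, glycine or D-serine, are bound and the membrane is depolarized. GluN1 carries the glycine site and is needed in every functional receptor, the GluN2 subunits carry the glutamate site and set the kinetics, and GluN3A, which binds glycine, lowers calcium permeability and is most abundant in the immature brain. In the hippocampus these receptors trigger long-term potentiation, and their excessive activation after brain trauma is a classic route to excitotoxic injury. GluN2A and GluN2B predominate in adult principal neurons, GluN2C is found mainly in cerebellar granule cells and in glia, and GluN2D is found in interneurons.

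Promoter sequences from RefSeq (assembly GRCr8) were found for 4 of the 6 genes, namely Grin1, Grin2c, Grin2d and Grin3a. Each window holds the 250 bases before and the 50 bases after the annotated start, and only the sequences, not the read counts, refer to GRCr8. Those of Grin1 and Grin3a are shown, the first because its product is in every receptor and the second because it is the gene that passed the test at day 14. The Grin1 window is on the minus strand of chromosome 3, at chr3:28528705-28529004, and the Grin3a window on the minus strand of chromosome 5, at chr5:69001509-69001808. Capitals mark a GC box, searched as GGGCGG on both strands.
Grin1: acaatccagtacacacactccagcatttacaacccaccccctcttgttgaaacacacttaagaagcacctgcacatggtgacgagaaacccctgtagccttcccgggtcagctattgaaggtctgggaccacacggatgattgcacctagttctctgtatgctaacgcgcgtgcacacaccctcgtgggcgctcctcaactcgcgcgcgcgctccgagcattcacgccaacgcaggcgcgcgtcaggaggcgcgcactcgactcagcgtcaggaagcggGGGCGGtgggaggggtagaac
Grin3a: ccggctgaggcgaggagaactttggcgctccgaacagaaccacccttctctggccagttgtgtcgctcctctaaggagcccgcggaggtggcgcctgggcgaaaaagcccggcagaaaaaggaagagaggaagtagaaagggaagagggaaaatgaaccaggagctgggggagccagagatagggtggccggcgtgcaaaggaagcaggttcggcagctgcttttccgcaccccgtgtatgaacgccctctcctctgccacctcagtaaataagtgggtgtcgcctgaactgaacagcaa
The capitals in the Grin1 window begin 29 bases after the start. The Grin1 window had a GC content of 59.7% with 25 CpG dinucleotides, and the Grin3a window 58.7% with 17, against medians of 51.7% and 7 over 33469 rat promoters of the same length. A GC box stood in 33.1% of those promoters. The shorter motif TGACG, part of the cAMP response element TGACGTCA, had 3 matches in the Grin1 window and was held by 21.2% of promoters, but the whole element, held by 1.83%, had none. The Grin2c, Grin2d and Grin3a windows had no match to these motifs, to TATAAA (14.2% of promoters) or to the sterol regulatory element TCACNCCAC (1.12%). A match is a run of letters only, and was not tested as a binding site.

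The libraries held 15065540 to 23743703 counted reads each. Replicates of a group differed by more than counting noise, with a chi-square per degree of freedom of 12.6 to 166 for each pair. Markers of hippocampal neurons were present in all samples, although Npy was listed at 0 in all 14 and Fibcd1, a CA1 marker, at 0 on day 1. Summed CPM, the count scaled to library size, of 18 choroid plexus markers were 11411 in Sham day 1 replicate 1, 2117 in TBI day 14 replicate 2 and 8866 in TBI day 14 replicate 3, against at most 256.3 in the other 11 samples. Of these markers Otx2 was at 0 in every sample. For the calls of the subunit genes within each day and between the shams, for the co-agonist genes and for the gene Kmo, results without these 3 libraries are also given. The other gene lists are not given without all 3, and the genes correlated with the subunits are given only with them. In bulk tissue, fewer cells of a type and less RNA per cell cannot be told apart.

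On day 1 none of the 6 subunit genes passed the test against Sham day 1, although all 6 had a negative log2 fold change. DESeq2 called 2 of them lower and limma-voom 0. At day 14 Grin3a was lower after TBI, at 0.495 of the sham level, and the other 5 did not pass. When TBI day 1 was set against Sham day 14, the baseline the study used for its trajectories, all 6 were lower, without overlap of the samples (17.8% of all tested genes). These statements rest on edgeR's quasi-likelihood test over all tested genes, with an adjusted p (Benjamini-Hochberg) under 0.05 as the threshold and the error of each log2 fold change as a standard error (SE). Among all tested genes, 7.93% were lower and 11.2% higher on day 1, 0.365% were lower and 4.07% higher at day 14, and 21% were lower in TBI day 1 against Sham day 14. The median log2 fold change of the 6 genes was -0.37 on day 1, -0.13 at day 14 and -1.17 against the later sham, where the medians over all tested genes were -0.02, -0.03 and 0.01.

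**Figure D1:**
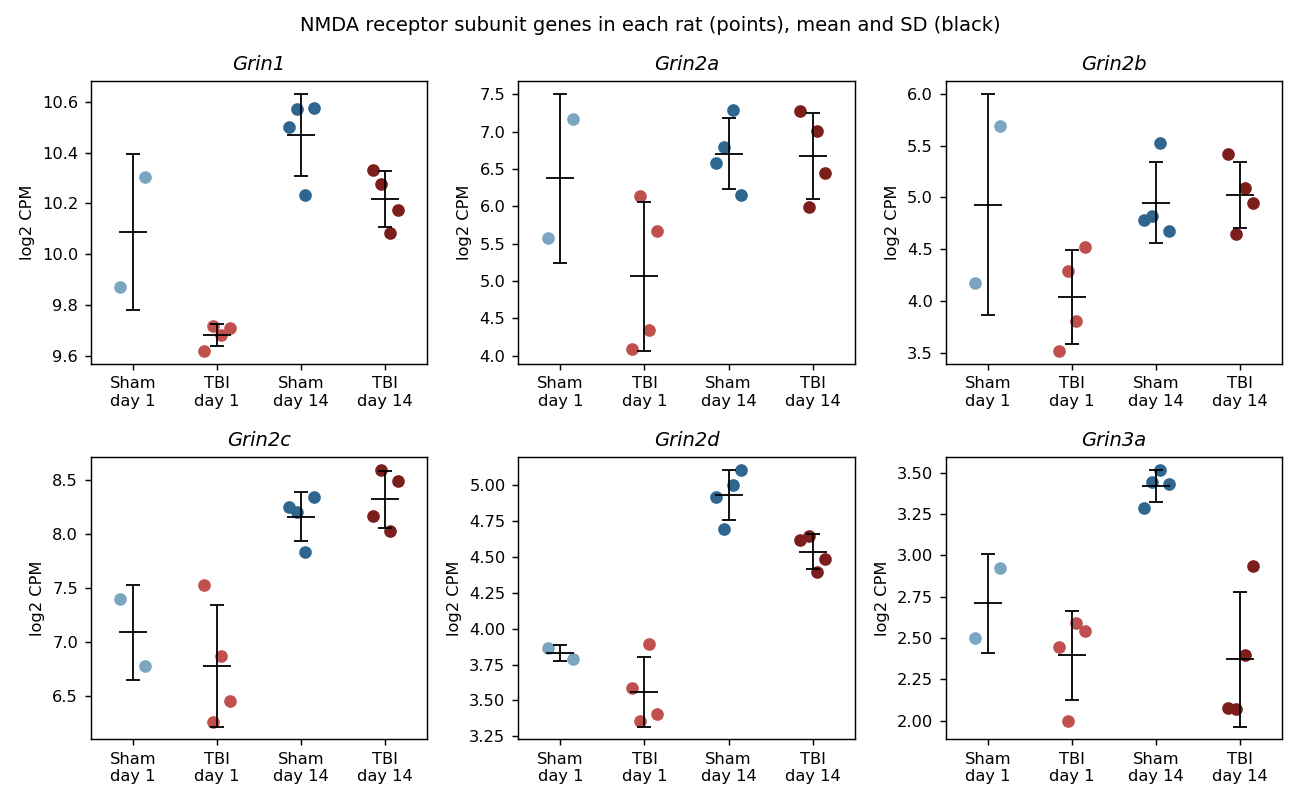
Log2 CPM (prior count 2) of each subunit gene in every sample, 1 panel per gene and 1 column of points per group, with the group mean and SD. Grin3a sits at 3.28 to 3.52 in Sham day 14 and at 2.07 to 2.94 in TBI day 14, while the 2 Sham day 1 samples of Grin2a lie at 5.58 and 7.18.

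Grin1, the obligatory subunit, stood at 935 and 1265 CPM in the Sham day 1 samples and at 787, 842, 821 and 837 CPM in TBI day 1. Every TBI day 1 sample was below both shams, and the 4 TBI samples had an SD of 0.04 on the log2 scale. The log2 fold change was -0.42 (SE 0.15, adjusted p = 0.0607), which missed the threshold. Of all tested genes, 14.1% were likewise lower without overlap. Without Sham day 1 replicate 1, the library with the choroid plexus markers, the log2 fold change was -0.62 with an adjusted p of 0.0167 by edgeR. It was -0.19 without Sham day 1 replicate 2, with an adjusted p of 0.59. Each of these fits had 1 Sham day 1 sample, which was assumed to vary like the samples of the other groups, so neither is a replicated comparison at day 1.

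At day 14 Grin1 was at 1449, 1520, 1203 and 1525 CPM in Sham and at 1288, 1240, 1085 and 1155 CPM in TBI. The groups overlapped only through Sham day 14 replicate 3. The log2 fold change was -0.26 (SE 0.12, adjusted p = 0.396). Against Sham day 14, TBI day 1 was lower, at -0.79 on the log2 scale (SE 0.12, adjusted p = 0.000141). Sham day 1 against Sham day 14 gave -0.37 (SE 0.15, adjusted p = 0.101), with overlap of the samples.

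Grin3a, the glycine-binding subunit, was the least counted of the 6, with 62 to 210 reads per sample. Its CPM was 9.63, 10.8, 11.4 and 10.7 in Sham day 14 and 4.11, 4.10, 5.17 and 7.55 in TBI day 14. All 4 TBI samples were below all 4 shams, and TBI replicate 4 was the highest of its group. The log2 fold change was -1.02 (SE 0.21, adjusted p = 0.00975), a level 50.5% lower. Of all tested genes, 5.86% were lower at day 14 without overlap, among them Grin2d and Grin3a.

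TBI day 14 replicates 2 and 3, which carried choroid plexus markers, had Grin3a at 4.10 and 5.17 CPM, and replicates 1 and 4, which did not, at 4.11 and 7.55 CPM. With each library left out in turn the log2 fold change ranged from -1.25 to -0.91 and the adjusted p from 0.00242 to 0.0435. Without all 3 libraries high in choroid plexus markers, where only 2 TBI samples remained at day 14, the log2 fold change was -0.83 and its adjusted p 0.152, so the call was lost. It was also lost with a choroid plexus score as covariate (log2 fold change -0.89, adjusted p = 0.0502) and with all 6 sham samples as one baseline (-0.82, adjusted p = 0.0703). That baseline joins the shams of both days.

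Markers of neuron classes differed in direction at day 14. The summed CPM of 12 interneuron markers was 921 to 1160 in Sham and 819 to 874 in TBI, without overlap, although none of the 11 tested was called (median log2 fold change -0.29). The 7 measured of 8 CA3 and CA2 pyramidal markers summed to 815 to 1210 CPM in Sham and 554 to 731 CPM in TBI, and Cpne7 alone of the 7 was called lower (log2 fold change -0.98, adjusted p = 0.0202). In contrast, 6 CA1 markers summed to 843 to 970 CPM in Sham and 976 to 1179 CPM in TBI, higher without overlap, with none of the 5 tested called. Pan-neuronal sums overlapped, at 9557 to 12440 and 8400 to 10321 CPM, as did dentate granule cell sums, at 154 to 254 and 205 to 229 CPM. Summed markers of astrocytes (5483 to 6800 against 8825 to 13066 CPM), microglia (544 to 696 against 1260 to 2267 CPM) and thalamus (56.6 to 71.0 against 94.5 to 117 CPM) were higher in TBI without overlap. Of the tested markers, 1 of 10 for astrocytes, 11 of 12 for microglia and 1 of 7 for thalamus were called higher. The astrocyte marker called was Gfap (log2 fold change 2.06), while the median of the 10 was -0.09, and the thalamus marker was Prkcd (1.71). The part of these cell markers in the Grin3a result was not tested.

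On day 1 Grin3a was at 5.55 and 7.47 CPM in Sham and at 5.34, 3.90, 5.91 and 5.73 CPM in TBI. The groups overlapped, and the log2 fold change was -0.32 (SE 0.26, adjusted p = 0.406). The TBI effect at day 1 minus that at day 14 was 0.69 on the log2 scale (SE 0.34, adjusted p = 0.279), so a difference between the days was not shown. Both Sham day 1 values were below all 4 Sham day 14 values, as for Grin2c and Grin2d and 20.1% of all tested genes. Between the shams the log2 fold change was -0.70 (SE 0.27, adjusted p = 0.0758). TBI day 1 against Sham day 14 gave -1.02 (SE 0.21, adjusted p = 0.00131).

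**Figure D2:**
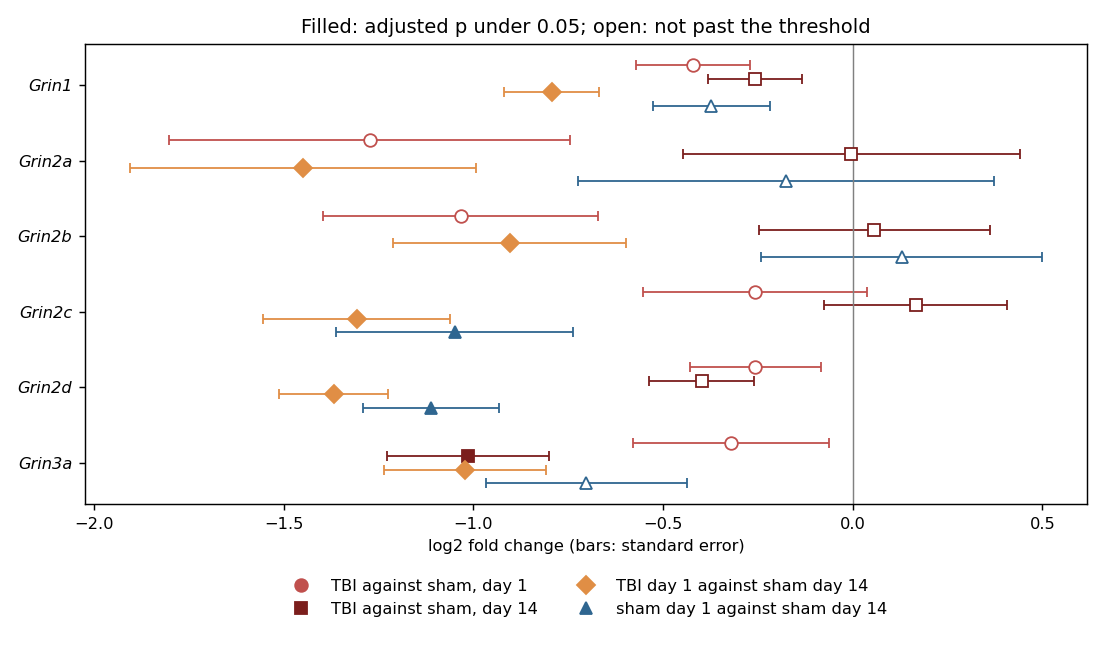
Log2 fold change of each subunit gene in each comparison, with bars of 1 SE, filled where the adjusted p was under 0.05. Grin3a (-1.02) is the gene called at day 14, none is called on day 1, and all 6 are called in TBI day 1 against Sham day 14.

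Grin2a and Grin2b encode the GluN2 subunits of adult principal neurons. Grin2a was at 47.7 and 144 CPM in Sham day 1 and at 17.0, 70.7, 20.3 and 50.9 CPM in TBI day 1. Sham replicate 2 was the highest of these 6 samples, and TBI replicates 2 and 4 lay above Sham replicate 1. Grin2b was at 17.9 and 51.4 CPM in Sham day 1 and at 11.4, 19.5, 13.9 and 22.9 CPM in TBI day 1. Its TBI replicates 2 and 4 again lay above Sham replicate 1, and all 4 were below Sham replicate 2.

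The day 1 log2 fold change was -1.27 for Grin2a (SE 0.53, adjusted p = 0.103) and -1.03 for Grin2b (SE 0.36, adjusted p = 0.0582). Both missed the threshold. With Grin1 they were the 3 genes of the 6 with an unadjusted p under 0.05 and a lower level, as were 17% of all tested genes. Without Sham day 1 replicate 1 the values were -1.86 for Grin2a (adjusted p = 0.0349) and -1.60 for Grin2b (adjusted p = 0.00596) by edgeR. They were -0.26 (adjusted p = 0.863) and -0.083 (adjusted p = 0.931) without Sham day 1 replicate 2. As for Grin1, these fits took their spread from the other groups, with 1 sham on day 1.

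At day 14 Grin2a was at 95.7, 111, 156 and 71.1 CPM in Sham and at 154, 63.3, 128 and 87.1 CPM in TBI. Grin2b was at 27.3, 28.2, 45.9 and 25.4 CPM in Sham and at 42.6, 24.96, 33.9 and 30.7 CPM in TBI. The groups overlapped for both genes. The log2 fold change was -0.0035 for Grin2a (SE 0.45) and 0.06 for Grin2b (SE 0.30), with adjusted p-values of 1 and 0.979. Against Sham day 14, TBI day 1 was lower for both, with -1.45 for Grin2a (SE 0.46, adjusted p = 0.0176) and -0.90 for Grin2b (SE 0.31, adjusted p = 0.026).

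Spread between replicates separated the genes. The pooled SD of log2 CPM within groups was 0.77 for Grin2a, larger than that of 95% of tested genes, and 0.50 for Grin2b, larger than that of 83.7%. Grin1 (0.15, larger than 11.5%) and Grin2d (0.18, larger than 20.7%) varied little. Grin2c was at 0.39 and Grin3a at 0.29, and the median over all tested genes was 0.27. Over the 14 samples Grin2a ranged 9.22-fold from lowest to highest CPM and Grin1 1.94-fold.

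Grin2a and Grin2b varied together. Their log2 CPM had a Pearson correlation of 0.95 over the 14 samples, which share libraries and group differences. The balance of GluN2A and GluN2B shifts toward GluN2A as synapses mature, and it was followed here as the ratio of Grin2a to Grin2b counts within each library. The ratio was 2.66 and 2.81 in Sham day 1 and 1.49, 3.62, 1.45 and 2.22 in TBI day 1. Replicates 1 and 3 of TBI day 1 were the lowest of all 14 samples, and replicate 2 was above both shams. The mean log2 ratio was 1.03 ± 0.62 (SD, n = 4) in TBI and 1.45 ± 0.06 (SD, n = 2) in Sham. The difference of -0.42 gave p = 0.467 in a two-sided exact permutation test, where 0.0667 is the smallest p that 4 against 2 samples allow.

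At day 14 the ratio was 3.50, 3.93, 3.41 and 2.79 in Sham and 3.62, 2.54, 3.79 and 2.84 in TBI. The groups overlapped. The difference in mean log2 ratio was -0.10, with p = 0.629 in the exact permutation test, for which 0.0286 is the smallest possible. Since the counts were not divided by transcript length, the ratio compares samples and does not give the relative abundance of the subunits.

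**Figure D3:**
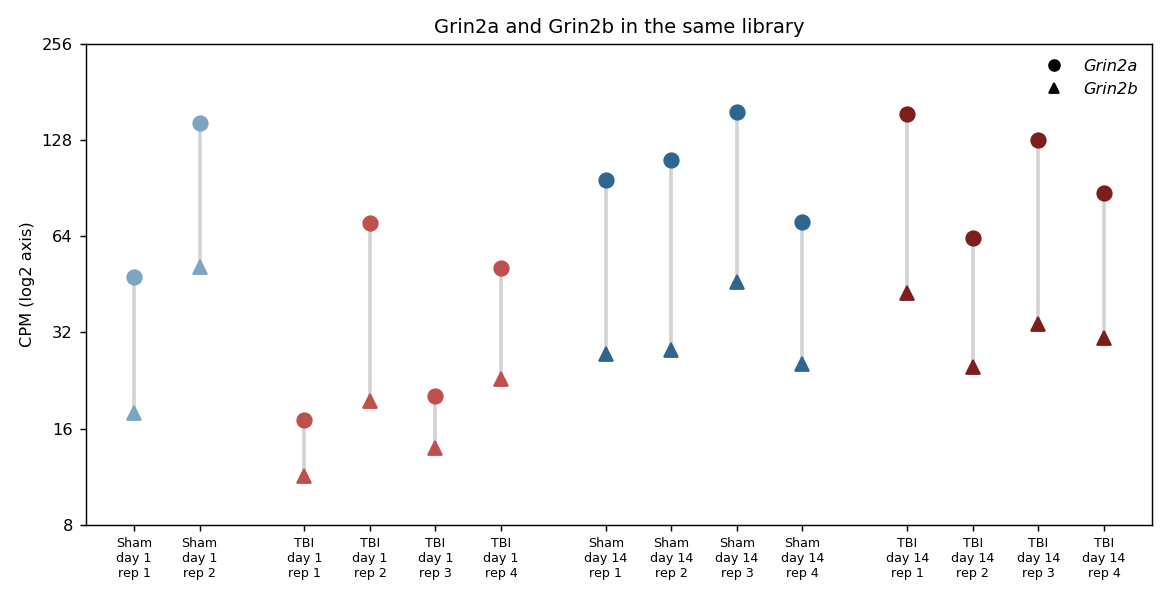
CPM of Grin2a (circles) and Grin2b (triangles) in each of the 14 samples on a log2 axis, joined by a grey line within a library. Both genes are low in TBI day 1 replicates 1 and 3, where the lines are shortest, with Grin2a at 17.0 and 20.3 CPM.

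Grin2c, the subunit of cerebellar granule cells and glia, was at 169 and 110 CPM in Sham day 1 and at 185, 76.5, 117 and 87.8 CPM in TBI day 1. The highest sample was TBI replicate 1 and the groups overlapped. Its log2 fold change of -0.26 (SE 0.29, adjusted p = 0.573) turned to 0.086 when Sham day 1 replicate 1 was left out. At day 14 the values were 305, 296, 227 and 325 CPM in Sham and 287, 387, 261 and 359 CPM in TBI. They overlapped as well, and the log2 fold change was 0.17 (SE 0.24, adjusted p = 0.887).

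Grin2c levels separated by day. All 6 day 1 samples were at or below 185 CPM and all 8 day 14 samples at or above 227 CPM. Sham day 1 was below Sham day 14, at -1.05 on the log2 scale (SE 0.31, adjusted p = 0.0312), and for TBI day 1 against Sham day 14 it was -1.31 (SE 0.25, adjusted p = 0.000629). In the comparison of shams 7.88% of all tested genes were lower, as were 2 of the 6 subunit genes. Without Sham day 1 replicate 2 the Grin2c difference between shams was -0.77 with an adjusted p of 0.243, and without the 3 libraries high in choroid plexus markers it was -1.39 with an adjusted p of 0.0536. The paper states a correction for batch effect in its trajectories, and none was made to the counts used here. It was not given whether the days were prepared as separate batches, so the day and such a batch cannot be told apart.

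Grin2d, the subunit of interneurons, was the other gene that differed between the shams. It was at 14.5 and 13.7 CPM in Sham day 1 and at 11.9, 10.1, 14.7 and 10.5 CPM in TBI day 1. At day 14 it was at 30.1, 25.8, 31.9 and 34.3 CPM in Sham and at 24.5, 24.96, 20.9 and 22.3 CPM in TBI. All day 1 samples were below all day 14 samples, and at day 14 every TBI sample was below every sham. The log2 fold change of TBI against Sham was -0.26 on day 1 (SE 0.17, adjusted p = 0.312) and -0.40 at day 14 (SE 0.14, adjusted p = 0.167), so neither passed the threshold. At day 14 Grin2d and Grin3a were the 2 genes with an unadjusted p under 0.05 and a lower level, as were 4.28% of all tested genes. Sham day 1 against Sham day 14 gave -1.11 (SE 0.18, adjusted p = 0.00216), and TBI day 1 against Sham day 14 gave -1.37 (SE 0.14, adjusted p = 4.24e-06).

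Some marker sums also differed between the shams without overlap. Of all tested genes, 20.1% were lower in Sham day 1 than in Sham day 14 without overlap. Sham day 1 had 2 samples, and its replicate 1 was the library with choroid plexus markers. Sham day 1 against Sham day 14 stood at 393 to 554 against 244 to 291 CPM for neocortical layers, 103 to 118 against 56.6 to 71.0 CPM for thalamus and 547 to 640 against 412 to 537 CPM for oligodendrocyte precursors. Sums were lower in Sham day 1 for CA3 and CA2 neurons (544 to 604 against 815 to 1210 CPM), CA1 neurons (291 to 719 against 843 to 970 CPM) and oligodendrocytes (11497 to 15509 against 15757 to 24872 CPM). The part of these markers in the Grin2c and Grin2d differences was not tested.

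Of the 4 group means of log2 CPM, TBI day 1 was the lowest for every subunit gene except Grin3a. Grin1, Grin2a and Grin2d shared the same order, from Sham day 14 down through TBI day 14 and Sham day 1 to TBI day 1. For Grin2b and Grin2c TBI day 14 was instead above Sham day 14. The spacing differed, with Grin2c and Grin2d low in both day 1 groups and Grin2a and Grin2b widely spread. Grin3a was highest in Sham day 14 with the other 3 groups between 2.37 and 2.71. Grin3a averaged 2.37 ± 0.41 in TBI day 14 and 2.39 ± 0.27 in TBI day 1 (SD over 4 samples each), which differed by less than the SD of either. For Grin2a, Sham day 14 (6.71 ± 0.47) and TBI day 14 (6.68 ± 0.57, SD, n = 4 each) were likewise within their spread. The comparison of TBI day 1 with Sham day 14 shares its samples with the others, and for Grin2c and Grin2d the shams of day 1 were also called lower than Sham day 14. Without a call, Sham day 1 against Sham day 14 stood at -0.37 for Grin1, -0.70 for Grin3a, -0.18 for Grin2a and 0.13 for Grin2b. No gene of the 6 passed the test of a change in the TBI effect between days, in which 3.68% of all tested genes were called. By edgeR the one with an unadjusted p under 0.05 was Grin2b (-1.09, adjusted p = 0.221), against 8.8% of all tested genes with a negative change.

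The genes whose log2 CPM most resembled each subunit gene over the 14 samples were found by Pearson correlation among all tested genes. For Grin3a they included Tfrc (r = 0.81), the transferrin receptor, and Cntnap4 (r = 0.81), a neurexin-family protein of interneuron synapses. Both were lower at day 14, with log2 fold changes of -0.83 for Tfrc (SE 0.14, adjusted p = 0.0025) and -0.78 for Cntnap4 (SE 0.12, adjusted p = 0.000736). They were chosen for likeness over samples that include these, so their direction is a description. On day 1 Cntnap4 (-0.61, adjusted p = 0.008) was called lower and Tfrc (-0.40, adjusted p = 0.121) was not.

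**Figure D4:**
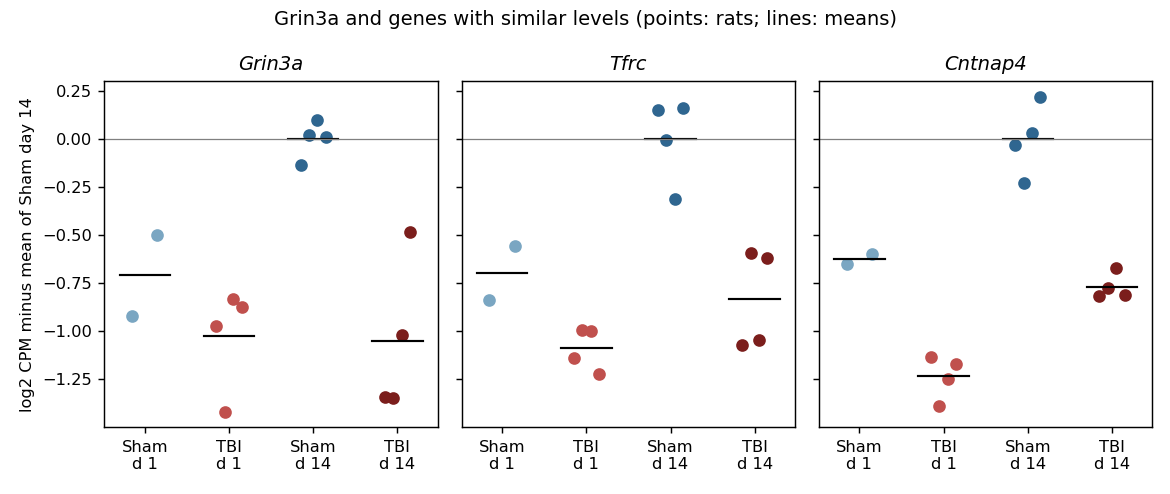
Log2 CPM of Grin3a, Tfrc and Cntnap4 in every sample by group, minus the mean of Sham day 14, with group means as lines. In each panel the Sham day 14 samples lie above the TBI day 14 samples, for Tfrc at 7.50 to 7.97 against 6.74 to 7.21 log2 CPM before that subtraction.

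For the other subunits the correlations were closer, from 0.96 to 0.98. The nearest genes were Tmem132e, Adamts19 and Pcsk5 for Grin1, and Trpc5, a cation channel, Sphkap and Gpd2 for Grin2a. Grin2b was nearest to Zbtb20, a transcription factor of hippocampal pyramidal neurons, Rnf150 and Camsap1. Grin2c was nearest to Matn4, Tpcn1 and Nagpa, and Grin2d to RGD1306151, Lrrc24 and Tspan17. Of the Grin1 neighbours, Tmem132e, Adamts19 and Pcsk5 were called lower on day 1, with log2 fold changes of -0.65, -1.66 and -0.83, and adjusted p-values of 0.0206, 0.00773 and 0.00654. None of the neighbours of Grin2a, Grin2b, Grin2c and Grin2d was called on day 1 by edgeR (adjusted p from 0.075 to 0.862). All neighbours were chosen for likeness over these same samples, so their day 1 direction is a description. Among the subunit genes themselves, Grin2c and Grin2d had r = 0.86 and Grin1 and Grin2d r = 0.85. These correlations describe libraries that share groups and depth, and carry no test.

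Genes of related roles were taken from 7 lists, which were also chosen with earlier results of these data known. Of 9 AMPA and kainate receptor subunits, the other ionotropic glutamate receptors, 5 (55.6%) were called lower on day 1 and none higher, against 7.93% of all tested genes lower (median log2 fold change -0.59), and none was called at day 14 (median -0.24, with 1 lower at an unadjusted p under 0.05 by edgeR and 0 called by DESeq2). Grik4 stood at -1.19 (SE 0.19, adjusted p = 0.000754) and Gria1 at -1.23 (SE 0.38, adjusted p = 0.034), with Gria2 at -0.78 (adjusted p = 0.0284), Grik2 at -0.59 (adjusted p = 0.0308) and Gria3 at -0.53 (adjusted p = 0.0453). Gria1 in TBI day 1 still overlapped the shams, at 6.23 to 8.37 against 8.29 and 9.30 log2 CPM. Gria2 (8.96 to 9.74 against 9.56 and 10.5 log2 CPM) and Gria3 overlapped too, and Grik2 and Grik4 did not. The day 1 count was 1 without Sham day 1 replicate 2 or TBI day 1 replicate 3, 3 without TBI day 1 replicate 2, 7 without Sham day 1 replicate 1, and 1 with only the groups compared. Against Sham day 14, 8 of the 9 (88.9%) were lower in TBI day 1, as were 21% of all tested genes. Those groups differ in day as well as in injury. At day 14 Gria2, Gria4, Grik1, Grik2 and Grik4 were lower in TBI than in Sham without overlap, as were 5.86% of all tested genes. With only the groups compared, 1 of the 9 was called lower at day 14.

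Of 15 genes that supply or clear the co-agonists, 3 (20%) were higher and 2 (13.3%) lower on day 1, against 11.2% and 7.93% of all tested genes. At day 14 edgeR called 0 (1 higher and 1 lower at an unadjusted p under 0.05) and DESeq2 called 1. Slc1a5, a neutral amino acid transporter, was higher by 2.15 (SE 0.39, adjusted p = 0.00168). Shmt1 (1.34, SE 0.28, adjusted p = 0.00432) and Shmt2 (0.88, SE 0.17, adjusted p = 0.00228), which convert serine to glycine, were also higher. Slc6a9, the glial glycine transporter, had a lower level (-0.67, SE 0.21, adjusted p = 0.0403), as had Psat1, an enzyme of serine synthesis (-0.57, adjusted p = 0.0382). None of the 15 was called lower without Sham day 1 replicate 1 (5 higher), without TBI day 1 replicate 2 or Sham day 14 replicate 2 (3 higher each), with at least 10 counts in every sample (3 higher), with only the groups compared (2 higher) or without the 3 libraries high in choroid plexus markers (4 higher). Of the kynurenine pathway, which makes the NMDA receptor ligands quinolinic and kynurenic acid, 7 genes were tested. Kmo, the hydroxylase on the branch toward quinolinic acid, was the one called on day 1 (1.88, SE 0.58, adjusted p = 0.0346) and again at day 14 (1.60, SE 0.41, adjusted p = 0.0372). This was a share of 14.3% on each day, against 11.2% of all tested genes higher on day 1 and 4.07% at day 14. The lowest count of Kmo was 10 reads. The day 1 call was lost when either sham or TBI day 1 replicate 1 or 3 was left out, with adjusted p-values up to 0.238, by limma-voom (0.0872), with only the groups compared (0.138), with the choroid plexus covariate (0.0536) and without the 3 libraries high in choroid plexus markers (0.0959). With all 6 shams of both days as the baseline the day 1 log2 fold change was 0.80 (adjusted p = 0.176). The day 14 call was lost without TBI day 1 replicate 3, Sham day 14 replicate 2, 3 or 4, or TBI day 14 replicate 1, 2 or 4, with adjusted p-values up to 0.134, with the covariate (0.12), and without the 3 libraries (0.223). Microglia, which express Kmo, had summed markers of 465 to 743 CPM in Sham day 1 and 979 to 1200 CPM in TBI day 1, with 6 of 12 called higher and P2ry12 and Tmem119 called lower. At day 14 the sums were 544 to 696 CPM in Sham and 1260 to 2267 CPM in TBI, with 11 of 12 called higher. Their part in the Kmo result was not tested.

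Among 24 tested anchoring and trafficking genes 4 (16.7%) were lower on day 1 and none higher (median -0.46). Ephb2, a receptor that clusters NMDA receptors, stood at -1.21 (SE 0.20, adjusted p = 0.000859). Neto1, an auxiliary protein, was at -1.08 (adjusted p = 0.0334), and the scaffold genes Dlgap1 and Dlg3 at -0.98 (adjusted p = 0.0475) and -0.87 (adjusted p = 0.0368). Dlg3 in TBI day 1 overlapped the shams, at 6.38 to 7.63 against 7.59 and 8.41 log2 CPM. Of 18 kinases and phosphatases 2 were lower, a share of 11.1% near the 7.93% of all tested genes, namely Camk2b (-0.86, adjusted p = 0.0377) and Camk2g (-0.68, adjusted p = 0.0152), subunits of the calcium/calmodulin kinase that GluN2B binds. Of 15 downstream calcium signalling genes, the exchange factors Rasgrf2 (-1.84, adjusted p = 0.0276), Tiam1 (-1.06, adjusted p = 0.04) and Kalrn (-0.79, adjusted p = 0.0113) were lower, a share of 20%. Tiam1 in TBI day 1 overlapped the shams, at 6.26 to 7.47 against 7.21 and 8.63 log2 CPM. Over 24 alternative fits Dlgap1 and Tiam1 were called in 11 each, Camk2b in 17 and the other genes named in this paragraph in 21 to 24. With 1 library left out Tiam1 ran from -1.60 to -0.18 and Dlgap1 from -1.26 to -0.64. None of the 8 tested transcriptional regulators was called on day 1 by edgeR or DESeq2 (1 lower at an unadjusted p under 0.05). At day 14 no gene of these 4 lists was called by either tool, and by edgeR 1 kinase or phosphatase gene was lower at an unadjusted p under 0.05. The day 1 counts of lower genes in the anchoring, kinase and calcium lists moved with single libraries of both groups. They were 10, 6 and 7 without TBI day 1 replicate 4, 3, 1 and 1 without TBI day 1 replicate 3, 7, 3 and 4 without Sham day 1 replicate 1, and 2, 0 and 0 without Sham day 1 replicate 2. The kinase count was also 1 without Sham day 14 replicate 1 or 2 or TBI day 14 replicate 1. With only the groups compared the counts were 1, 0 and 0.

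Some summed neuronal markers were lower after TBI on day 1, and others overlapped. The summed CPM of 12 pan-neuronal markers was 12034 and 15509 in the shams and 5676 to 9943 after TBI, and Rbfox3, Slc17a7, Thy1 and Tubb3, 4 of the 12, were called lower. Interneuron markers summed to 975 and 1035 CPM in Sham and 656 to 845 CPM in TBI, with 6 of 11 tested called lower. Dentate granule cell markers, 6 measured of 8, summed to 199 and 464 CPM in Sham and 46.9 to 180 CPM in TBI. The groups overlapped for CA1 markers, at 291 and 719 CPM in Sham and 346 to 683 CPM in TBI, and for CA3 and CA2 markers, at 544 and 604 CPM in Sham and 511 to 717 CPM in TBI. The part of these markers in the day 1 values of the subunit genes was not tested.

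**Figure D5:**
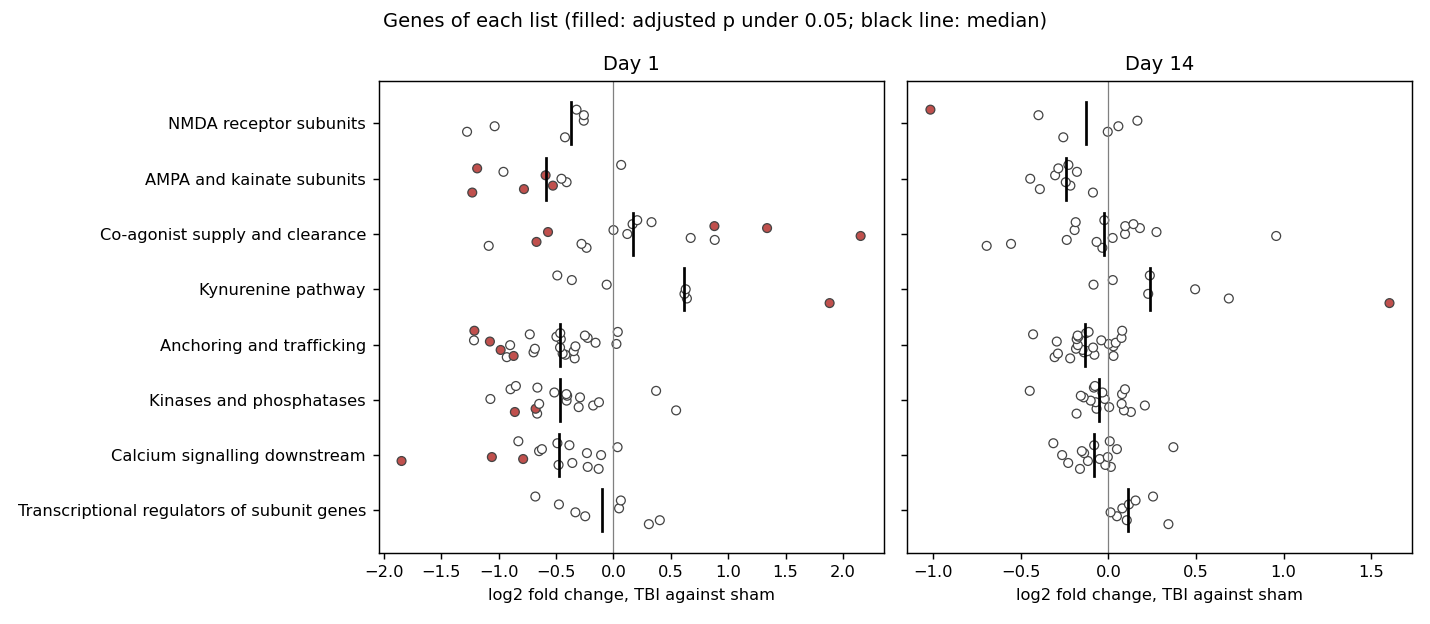
Log2 fold change of TBI against Sham at each day for the subunit genes and every tested gene of the 7 lists, 1 row per list, filled where the adjusted p was under 0.05, with the median as a black line. Medians of the 7 lists on day 1 run from -0.59 for AMPA and kainate subunits to 0.62 for the kynurenine pathway, and at day 14 from -0.24 to 0.24.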

How the data were processed

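RNA-seq was made by the authors from polyadenylated RNA of 14 rat hippocampi with a stranded kit and single-end reads. Per the study's methods, reads were aligned to rn5 with STAR 2.4.2a and counted on UCSC genes with featureCounts 1.5.0. The deposited values are counts per gene, checked to be whole numbers, without normalization, and 2 gene names are repeated. Samples were grouped by their labels, and every RNA-seq sample was used. The methods list fewer sham rats at day 14 than the labels, which were followed. Totals per sample ran from 15065540 to 23743703, and each gene's precision rests on the spread between samples, one rat each as far as the methods state.

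The test was the quasi-likelihood test of edgeR 4.0.16 in R 4.3.3. Genes were filtered with filterByExpr on the groups, libraries were scaled by TMM, and the 4 group means were fitted to all 14 samples together. Two-sided p-values of 12875 genes received the Benjamini-Hochberg adjustment and were called below 0.05. Log2 CPM has a prior count of 2. The ratio of Grin2a to Grin2b was taken on counts plus 0.5 and tested by exact permutation. Alternatives used limma 3.58.1 (voom) and DESeq2 1.42.0, other scalings, filters and baselines, a replicate block, a choroid plexus score as covariate, and each library left out. The steps were tested on simulated data. The fit without the 3 libraries high in choroid plexus markers was chosen after seeing the data.

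The subunit genes and all lists were chosen with earlier results of these data known. Named are the 6 subunit genes, the 3 most correlated genes of each, and per list up to 4 genes past the threshold at day 1 and 2 at day 14 by size of fold change. One gene that this rule names is not reported here. Gria3, Psat1 and single markers were added after their values were seen. The H3K4me3 peak lists were not used here, since no annotation of rn5 was at hand. Figures were drawn with matplotlib 3.10.9.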

Additional observations from a re-analysis of the deposited data

How the results depend on the processing

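Of the tests in the report, the day 1 comparison depended most on the processing. In the fits with all 6 sham samples as the baseline, shams of both days are joined, so day and injury are mixed there. Against 0 subunit genes called on day 1 by edgeR, 2 were called by DESeq2 (Grin1 and Grin2b), 2 with the choroid plexus score as covariate, 6 with all 6 sham samples as the baseline, 3 without the 3 libraries high in choroid plexus markers, and 0 to 3 with 1 library left out, where a lone Sham day 1 sample takes its spread from the other groups. The 3 came without Sham day 1 replicate 1, and 1 came without TBI day 1 replicate 2 (Grin2a), TBI day 1 replicate 4 or Sham day 14 replicate 3 (both Grin2b). At day 14 the count of 1 became 0 with all 6 shams (1 at an unadjusted p under 0.05), with the covariate (2) and without the 3 libraries (1), and was 1 with any 1 library left out. In TBI day 1 against Sham day 14, 6 genes became 4 to 6 with 1 library left out. Grin2a was lost without TBI day 1 replicate 3 or Sham day 14 replicate 3 (adjusted p = 0.0531 and 0.0538), and Grin2b without TBI day 1 replicates 1 or 3 or Sham day 14 replicate 3 (adjusted p = 0.0607, 0.0695 and 0.0962). Between the shams the count of 2 became 4 by DESeq2, 1 with the covariate, 1 without the 3 libraries and 1 to 3 with 1 library left out, where Grin2c was lost without Sham day 1 replicate 2 or Sham day 14 replicates 1, 2 or 4 and Grin3a was called without TBI day 14 replicate 4. For the change between days it was 0 to 1, the 1 being Grin2b without Sham day 1 replicate 1 (-1.66, adjusted p = 0.0423). The causes were not tested.

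Signs turned where values lay near 0 or where Sham day 1 was part of the comparison. Grin2c on day 1 was 0.080 without the 3 libraries and ran from -0.57 to 0.086 with 1 library left out, the highest being without Sham day 1 replicate 1. Grin2a at day 14 was 0.012 with at least 10 counts in every sample, 0.081 with the replicate block, 0.030 with only the groups compared, 0.053 with all 6 shams, 0.26 with the covariate, 0.17 without the 3 libraries, and -0.22 to 0.23 with 1 library left out. Grin2b at day 14 ran from -0.088 to 0.29. Between the shams Grin2a was 0.42 without the 3 libraries and -1.19 to 0.41 with 1 library left out, and Grin2b was -0.0089 by limma-voom and -0.82 to 0.70. The change between days for Grin1 ran from -0.37 to 0.068, and the day 14 difference in the Grin2a to Grin2b ratio from -0.19 to 0.0033.

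With the replicate block the counts of called subunit genes stayed at 0, 1, 6, 2 and 0 in the 5 comparisons, and the pairing changed no call of these genes. Same-numbered samples of Sham and TBI day 14 deviated together with r of -0.04 to 0.24, and 4 of 8 correlated best with their own number, so the numbers were not taken as pairs. Over all genes the block moved the day 14 calls from 524 to 475 higher and from 47 to 46 lower. Over the alternatives the calls of all genes ran from 555 to 2332 higher (1437 as reported) and 94 to 2066 lower (1021) on day 1, and from 375 to 903 higher (524) and 18 to 205 lower (47) at day 14. They ran from 673 to 1924 higher (1450) and 270 to 1507 lower (1014) between the shams, and from 118 to 600 higher (288) and 58 to 453 lower (186) for the change between days. Grin3a had the fewest reads of the 6 genes, 62 to 210 per sample.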

Other observations

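Grin3b, the other gene of the GluN3 branch, was not among the 6 genes and was looked at after the other values were seen. It lay at 4.58 and 7.98 CPM in Sham day 1, 5.06 to 7.75 CPM in TBI day 1, 10.9 to 14.0 CPM in Sham day 14 and 9.24 to 10.9 CPM in TBI day 14. Both day 1 groups were below both day 14 groups. TBI and Sham overlapped on each day, with log2 fold changes of -0.04 (SE 0.24, adjusted p = 0.922) on day 1 and -0.32 (SE 0.19, adjusted p = 0.57) at day 14 by edgeR. Sham day 1 against Sham day 14 gave -1.01 (SE 0.24, adjusted p = 0.0128) and TBI day 1 against Sham day 14 -1.05 (SE 0.19, adjusted p = 0.000512). Grina, an ionotropic glutamate receptor-associated protein that is no channel subunit, overlapped in every comparison, at 630 to 1227 CPM over the samples, and passed no test (log2 fold change -0.08 on day 1 and 0.14 at day 14, adjusted p = 0.779 and 0.814).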
